A study of Mus musculus with 7 samples.

Results

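In lung dendritic cells from mice given house dust mite extract, 102 genes lay on opposite sides of their PBS level in the 2 genotypes. In treated wild type cells 45 of them were higher than in PBS-treated wild type cells and 57 were lower, and in treated Irf3-deficient cells each lay on the other side. Genes were chosen from 19938 genes represented by a probeset with a single gene symbol, with the brightest probeset taken for each gene. A member had a mean log2 level of at least 7.5 over all arrays, which 11598 genes reached. Its mean in treated wild type minus its mean in PBS-treated wild type, and its mean in treated Irf3-deficient minus the same PBS mean, had opposite signs and were each at least 0.4 in size. The 102 members are 0.879% of the genes that bright. Below the brightness minimum, 2 more genes met the remaining criteria.

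The values came from 7 microarrays, each loaded with RNA of 1 pool of sorted lung CD11b+ conventional dendritic cells (cDC2s) taken from 10 female mice on a C57Bl/6 background. Cells had been sorted as CD11c+, MHC-II+, CD11b+, Ly6C- and CD64-. Wild type mice received PBS, a saline solution (2 arrays), or 100 µg of house dust mite (HDM) extract (2 arrays), and Irf3-deficient mice received 100 µg of HDM extract (3 arrays). Lungs were taken 12 hours later in every group. The labels call the mice Irf3 deficient and give no allele. Irf3-deficient mice given PBS were not analysed here, so the difference between treated Irf3-deficient and PBS-treated wild type cells holds genotype and treatment together, which cannot be told apart. The genes are therefore described by their levels in the 3 groups, and not as responses to HDM in each genotype. Each pool is counted as 1 sample, and nothing in the labels says more about how separate the pools were, so the errors measure the spread between these pools. In such bulk samples, fewer cells of a type and less RNA per cell cannot be told apart.

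Because the means of all 3 groups chose the members, their differences are a description and carry no test. Both differences share the PBS arrays, and the 2 that involve treated wild type cells share those arrays, so their sizes are given side by side. Differences are in log2 units, where 1 is a doubling, and are given with the standard error (SE) of the linear model fitted to all genes with limma.

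cDC2s take up inhaled material in the lung, carry it to lymph nodes and prime T helper cells, and they are studied for their part in allergic sensitisation to mites. IRF3 is a transcription factor that is activated downstream of Toll-like receptors and of cytosolic nucleic acid sensors. It switches on type I interferon and some interferon-type genes directly, and secreted interferon then induces a wider set of genes through its receptor and STAT factors. HDM extract holds proteases, endotoxin and glycans that reach Toll-like and C-type lectin receptors on these cells.

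Across the series, correlations between arrays over all genes were 0.9947 to 0.9972 within a group and 0.9726 to 0.9898 between groups. Irf3 itself read 9.48 and 9.56 in the PBS arrays, 9.59 and 9.57 after HDM in wild type, and 8.26, 8.13 and 8.30 without Irf3, which is 2.55-fold lower than in treated wild type and goes with the labels. All 10 cDC2 markers reached the brightness minimum, and their summed level (on the log2 scale) lay between 15.76 and 16.07 in the 7 arrays. Markers of macrophages and monocytes, which the CD64- Ly6C- gate should remove, were bright as well (10 of 10 measured). Their summed level was 15.10 and 15.42 in the PBS arrays, 13.60 and 14.20 after HDM in wild type, and 14.74 to 14.78 without Irf3. Of 7 T and NK cell markers 2 were bright, and of 7 neutrophil markers 3 were. Markers of another dendritic cell type, cDC1, were all bright (7 of 7), with summed levels of 12.79 and 12.53 in PBS arrays, 13.51 and 13.20 after HDM in wild type, and 12.55 to 12.75 without Irf3.

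**Figure D1:**
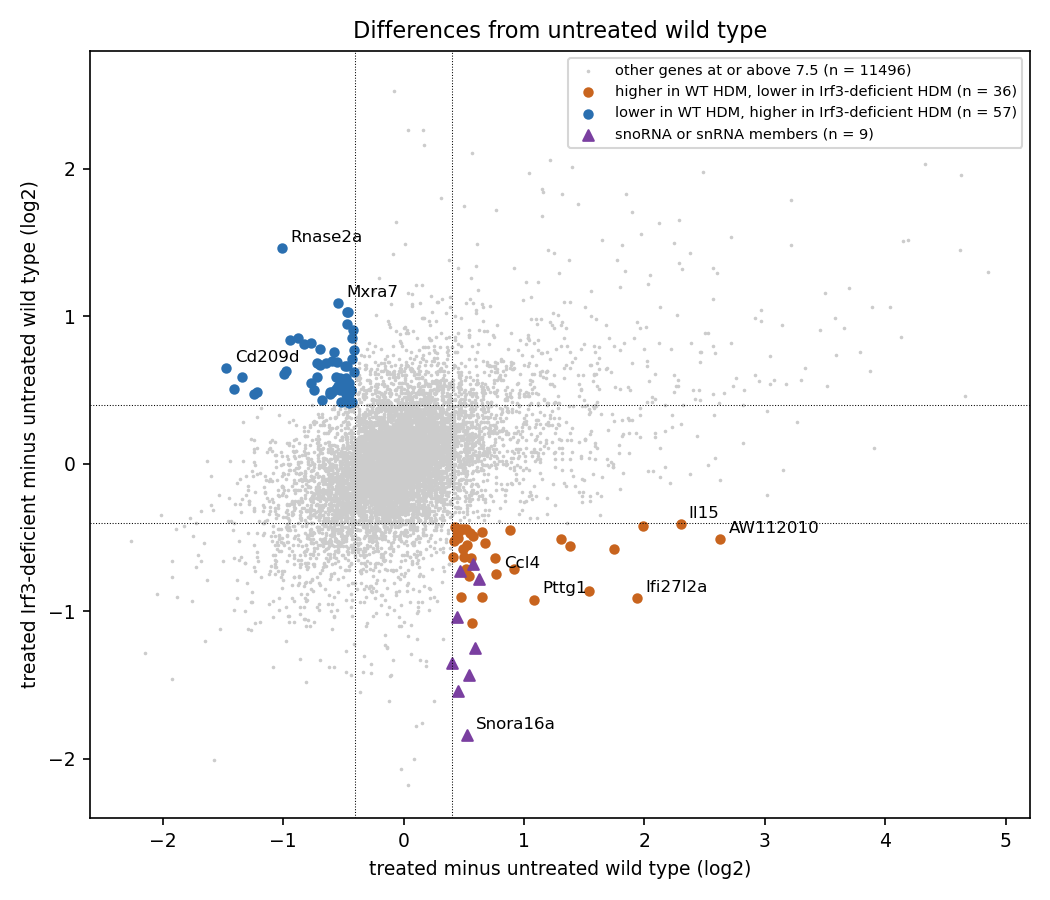
Each point is 1 gene with an overall mean log2 level of at least 7.5. The horizontal axis is treated minus PBS-treated (untreated) wild type and the vertical axis is treated Irf3-deficient minus PBS-treated wild type, both in log2 units. The 45 members of the lower right quadrant are drawn in orange or as purple triangles (9 small nucleolar or small nuclear RNAs) and the 57 of the upper left quadrant in blue. The rule placed them beyond 0.4 on both axes, and 5 other genes lie outside the axes.

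The 45 genes that were highest in treated wild type cells had a median difference from PBS of 0.55 in treated wild type and -0.63 in treated Irf3-deficient cells. For the 57 genes that were lowest in treated wild type the medians were -0.54 and 0.59. Over all 19938 genes the medians were 0.03 and 0.04. Between the treated genotypes the medians were -1.33 for the first class and 1.18 for the second, on the Irf3-deficient side. The first class thus holds members up to 8.77-fold lower without Irf3 (AW112010), and the second up to 5.55-fold higher (Rnase2a).

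Both PBS arrays lay strictly between all treated wild type and all Irf3-deficient arrays in 84 of the 102 members (82.4%). Among all genes this order, in either direction, was found in 5.45%. By class, it was found in 31 of 45 members that were lowest without Irf3 (2.16% of all genes, 3.22% of bright genes) and in 53 of 57 that were lowest in treated wild type (3.29% of all genes, 5.26% of bright genes). The rule asked for PBS means in between, so nothing is read from these shares about HDM or genotype. The 18 members whose groups overlapped were 8 snoRNAs, Rnu3a, Vaultrc5, Ciao2b, Chst7, Taf13 and Eif4a3 in the first class and Tcim, Gpr84, Cxcl13 and Ccl7 in the second. In limma's fit over all genes, at a Benjamini-Hochberg adjusted p under 0.05, 69 members passed in treated against PBS-treated wild type (17.6% of all genes), 82 in Irf3-deficient against PBS-treated wild type (10.8%) and all 102 between the treated genotypes (19.7%). In 61 members both differences from PBS passed (5.15% of all genes). The rule used these contrasts, and the counts are given only beside that background.

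The 3 members furthest apart between the treated genotypes, AW112010, Ifi27l2a and Il15, are all linked to interferon. The 7 genes of this role had a median of 1.94 in treated wild type and -0.51 in Irf3-deficient cells against PBS. In each of the 7 the groups did not overlap, an order that the rule favoured. It was found in 31 of the 36 first-class members other than small nucleolar and small nuclear RNAs, and in 2.16% of all genes. Roles were assigned to members after their values were seen. Of the 7 cDC1 markers, 2 rose and 2 fell in treated wild type, and 1 was higher and 2 lower without Irf3 than in PBS. In a wider list of 16 cDC1 markers, 4 rose and 7 fell in treated wild type, with a median difference of 0.04. Of these 16, 4 were higher and 4 lower without Irf3 than in PBS. The summed level of the 7 markers given above was also highest in treated wild type. That of 6 B cell and plasmacytoid dendritic cell markers was 10.64 and 10.93 in PBS arrays, 12.38 and 12.33 after HDM in wild type, and 11.16 to 11.24 without Irf3. Without Bst2, which interferon induces, the latter was 9.75 and 10.01, then 9.78 and 9.51, and 10.45 to 10.55 in the same groups. The part of these cell types in the first class was not tested.

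AW112010, a long noncoding RNA induced by interferon and inflammation, read 10.22 and 9.98 in the PBS arrays, 12.73 and 12.73 in treated wild type and 9.60, 9.75 and 9.45 without Irf3. It was 6.18-fold higher in treated wild type than in PBS (2.63 ± 0.13) and 1.42-fold lower without Irf3 (-0.51 ± 0.12). Both treated wild type arrays were far above the rest, and the Irf3-deficient arrays sat just under the PBS arrays. Il15, the cytokine that sustains NK cells and memory CD8 T cells, was at 9.22 and 8.99 in PBS arrays, 11.15 and 11.65 after HDM in wild type and 8.71, 8.80 and 8.58 on the Irf3-deficient side. Its difference from PBS was 2.30 ± 0.16 in treated wild type and -0.41 ± 0.15 without Irf3, so most of its distance between the genotypes lay on the wild type side. Plaat3, a phospholipase and acyltransferase, gave 7.79 and 7.52 in the PBS arrays, 9.29 and 9.99 in the treated wild type arrays and 7.18, 7.32 and 7.20 in the Irf3-deficient ones, with differences of 1.99 ± 0.19 and -0.42 ± 0.17.

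Ifi27l2a, an interferon-induced gene of the Ifi27 family, had the largest value of its smaller difference among these 7 genes. It read 10.63 and 10.13 in the PBS arrays, 12.14 and 12.51 in treated wild type and 9.54, 9.58 and 9.27 without Irf3, which is 3.84-fold above PBS in treated wild type and 1.88-fold below it without Irf3 (-0.91 ± 0.16). All 3 Irf3-deficient arrays were below both PBS arrays. BC147527 was at 8.06 and 7.72 in PBS arrays, 9.20 and 9.66 after HDM in wild type and 7.10, 6.99 and 7.0 on the Irf3-deficient side, with differences of 1.54 ± 0.16 and -0.86 ± 0.14. Its groups stood apart in the same order. Ms4a6b, a membrane-spanning protein of the MS4A family, gave 10.75 and 10.28 in the PBS arrays, 12.15 and 12.38 in the treated wild type arrays and 10.00, 10.12 and 9.69 in the Irf3-deficient ones, with differences of 1.75 ± 0.17 and -0.58 ± 0.16. Epsti1, an interferon-response gene, read 10.48 and 10.22 in the PBS arrays, 11.66 and 11.67 in treated wild type and 9.88, 10.00 and 9.64 without Irf3, with differences of 1.31 ± 0.14 and -0.51 ± 0.12. In both genes the Irf3-deficient arrays came close to the lower PBS array. BC147527 and Ms4a6b belong to families of closely related genes, so possible cross-hybridisation, which was not tested, makes their identity uncertain.

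Most genes of an interferon-stimulated list were placed otherwise. In a list of 65 such genes, 55 were measured, and 54 rose in treated wild type (8.35% of all genes rose), with a median difference of 2.72. In Irf3-deficient cells 38 of the 55 were higher than in PBS cells (5.89% of all genes), with a median of 0.58, and 2 were lower (4.91% of all genes). Those 2 were Ifi27l2a and Epsti1, and no other gene of the list was in the opposite-sign set. The list, like the members, was chosen with earlier results of these data known.

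Promoter sequences were set beside the values because an interferon-stimulated response element (ISRE) is the site through which IRF and STAT complexes act. RefSeq promoters of build GRCm38.p6, 300 bases long around the start, were found for 69 members (26 of the first class and 43 of the second). The ISRE core (GAAA, 2 bases of any kind, GAAA), searched on both strands, stood in 60% of 50 promoters from the interferon-stimulated list and in 3.99% of all 27025 genes of the table. It was found in 1 of 26 promoters of the first class (3.85%, BC147527) and in 2 of 43 of the second (4.65%, Clec4d and Pilra), close to the share over all genes. The stretches below show the BC147527 and Pilra matches, the AP-1 match (TGANTCA) of Il1a and, for contrast, the 90 bases before the start of Epsti1 and Ms4a6b, where no searched motif was found. Capitals mark the match.
BC147527, chr13:120300252-120300341, plus strand: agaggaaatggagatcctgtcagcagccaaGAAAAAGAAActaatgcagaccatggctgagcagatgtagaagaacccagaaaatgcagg
Pilra, chr5:137836397-137836486, minus strand: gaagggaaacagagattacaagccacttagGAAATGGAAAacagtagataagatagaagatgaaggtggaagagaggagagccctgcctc
Il1a, chr2:129309973-129310062, minus strand: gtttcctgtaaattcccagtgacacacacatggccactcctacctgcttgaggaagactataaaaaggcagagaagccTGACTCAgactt
Epsti1, chr14:77904149-77904238, plus strand: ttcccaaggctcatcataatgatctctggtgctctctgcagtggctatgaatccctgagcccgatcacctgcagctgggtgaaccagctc
Ms4a6b, chr19:11518469-11518558, plus strand: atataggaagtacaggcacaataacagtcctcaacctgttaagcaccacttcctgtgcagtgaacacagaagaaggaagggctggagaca

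The BC147527 match begins 110 bases before the start, the Pilra match 178 and the Il1a match 12. The other searched motifs are set beside their shares in all genes and in bright genes. The AP-1 site was in 1 of 26 and 2 of 43 promoters (8.97% of all genes, 6.3% of bright genes). The gamma-activated site TTCNNNGAA was in 1 and 4 (9.55% and 8.05%), and the E-box CACGTG in 1 and 4 (8.09% and 11.8%). The cyclic AMP element TGACGTCA was in 0 and 2 (2.03% and 3.47%) and the ETS purine box GAGGAAGT in 1 and 3 (3.69% and 3.85%). In the second class these shares were, in the same order, 4.65%, 9.3%, 9.3%, 4.65% and 6.98%. No matches of different motifs overlapped. Any of the motifs stood in 21 of the 69 promoters, a share that was not counted over all genes. A match is a stretch of letters and says nothing about binding, and its absence speaks only of this window.

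Pttg1 and Ccl4 led the remaining first-class genes by the smaller of their 2 differences. Pttg1, securin, which holds back the separation of sister chromatids until anaphase, was at 9.53 and 9.59 in PBS arrays, 10.62 and 10.67 after HDM in wild type and 8.67, 8.79 and 8.46 on the Irf3-deficient side, or 2.12-fold above PBS and 1.89-fold below it. The arrays of each group lay close together, with standard deviations of 0.05, 0.04 and 0.17. Ccl4, the chemokine MIP-1β, gave 10.87 and 10.72 in the PBS arrays, 11.42 and 11.71 in the treated wild type arrays and 10.09, 10.13 and 9.92 in the Irf3-deficient ones, with differences of 0.77 ± 0.13 and -0.75 ± 0.12. Its groups were apart. Whether related genes of the CC chemokine cluster bind its probes was not tested, so the probeset is uncertain.

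Among 8 members of metabolism and transport, Atp10a, a phospholipid flippase, read 9.32 and 9.24 in the PBS arrays, 10.02 and 10.39 in treated wild type and 8.83, 8.45 and 8.45 without Irf3, with differences of 0.92 ± 0.16 and -0.71 ± 0.15. Cnp, a 2′,3′-cyclic nucleotide phosphodiesterase, was at 10.47 and 10.57 in PBS arrays, 11.12 and 11.04 after HDM in wild type and 10.11, 9.80 and 9.74 on the Irf3-deficient side, with differences of 0.56 ± 0.13 and -0.64 ± 0.12. Taldo1, transaldolase of the pentose phosphate pathway, gave 10.06 and 9.78 in the PBS arrays, 10.27 and 10.48 in the treated wild type arrays and 9.50, 9.30 and 9.45 in the Irf3-deficient ones. Its differences of 0.45 ± 0.13 and -0.50 ± 0.12 were smaller than those of Atp10a. It was the only member in a list of NRF2 antioxidant targets, of which 29 were measured. Slc27a3 (a fatty acid transport protein), Nmral1, Ciao2b (iron-sulphur protein assembly), Cercam and Chst7 (a sulphotransferase) completed this role.

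The cytoskeleton, adaptor and traffic group held 5 genes of the first class, and none overlapped between groups. That was so in 31 of the 36 first-class members other than small nucleolar and small nuclear RNAs, and in 2.16% of all genes. Dok1, an adaptor that dampens tyrosine kinase signalling, read 9.37 and 8.99 in the PBS arrays, 10.37 and 10.74 in treated wild type and 8.64, 8.5 and 8.71 without Irf3, with differences of 1.38 ± 0.16 and -0.56 ± 0.14. Tmsb10, which binds actin monomers, was at 11.95 and 11.63 in PBS arrays, 12.27 and 12.67 after HDM in wild type and 11.33, 11.24 and 11.18 on the Irf3-deficient side. Its differences were 0.68 ± 0.14 and -0.54 ± 0.13, and a second probeset of the gene gave 0.67 and -0.58. Arpc5l, an Arp2/3 complex subunit, and Dbnl, an actin-binding adaptor, had differences of 0.58 ± 0.11 and 0.45 ± 0.10 in treated wild type. Plekhf2, an endosomal protein, completed the group.

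Protein folding and degradation was represented by Hspe1 (the mitochondrial co-chaperonin), Dnaja1 (an HSP40 co-chaperone), Psma7 (a proteasome core subunit) and Txndc17 (a thioredoxin-like protein), with a median of 0.58 in treated wild type and -0.45 without Irf3. Txndc17 was the brightest of the class, at 12.37 and 12.16 in PBS arrays, 13.10 and 13.21 in treated wild type and 11.64, 11.89 and 11.94 without Irf3. Transcription, splicing and translation held 7 genes. Rps27l, a ribosomal protein S27 paralogue and p53 target, gave 12.39 and 12.35 in the PBS arrays, 13.07 and 13.20 in the treated wild type arrays and 11.46, 11.83 and 11.89 in the Irf3-deficient ones, with differences of 0.76 ± 0.13 and -0.64 ± 0.12. Its groups were far apart. Polr2g, a subunit of RNA polymerase II, had differences of 0.48 ± 0.13 and -0.90 ± 0.12, and Carhsp1, an RNA-binding protein, of 0.52 ± 0.11 and -0.71 ± 0.10. Edf1 and Taf13 (transcription cofactors), Mrpl30 (mitochondrial ribosome) and Eif4a3 (exon junction complex) were the other members.

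Gpr137b-ps, a transcribed pseudogene, read 11.33 and 11.24 in the PBS arrays, 11.74 and 11.96 in treated wild type and 9.90, 10.43 and 10.27 without Irf3, with differences of 0.57 ± 0.15 and -1.08 ± 0.14. Its parent gene may bind the same probes, so it is uncertain. Gm24463, a predicted noncoding gene, was counted and is not described.

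**Figure D2:**
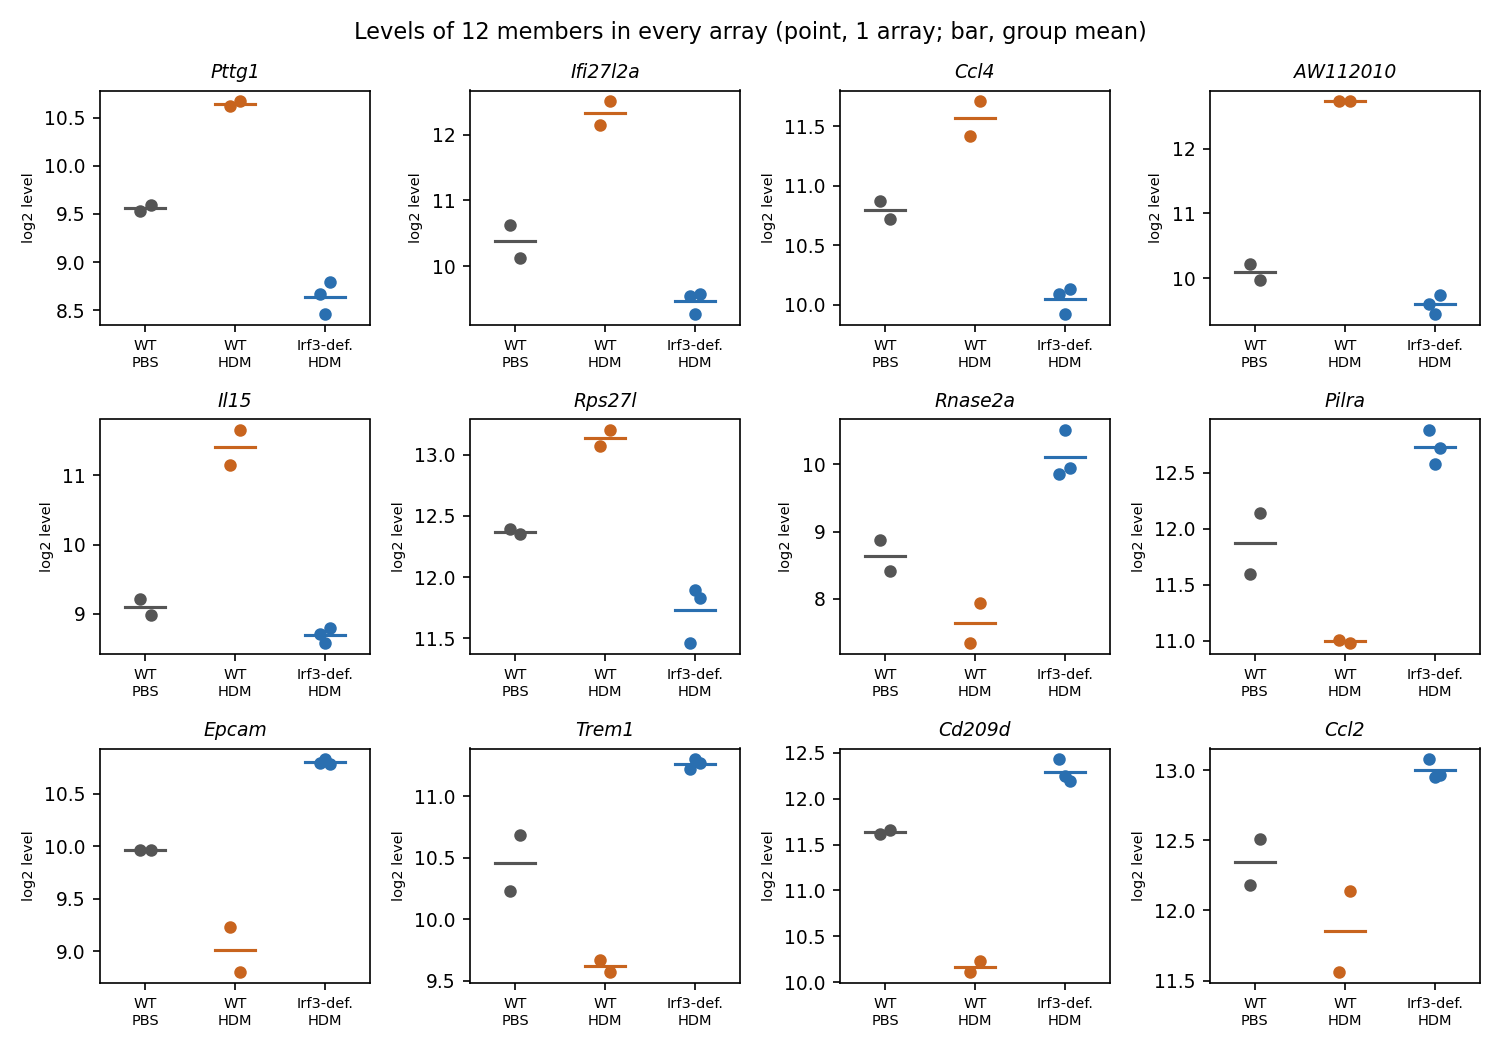
Log2 levels of 12 members, 1 panel a gene, with 1 point an array and a bar at the group mean (2 PBS-treated and 2 treated wild type arrays, 3 treated Irf3-deficient arrays). In all 12 panels the PBS arrays lie between the other groups, as at 9.53 and 9.59 for Pttg1. The first 6 genes were highest in treated wild type cells and the last 6 in treated Irf3-deficient cells.

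Small RNAs stood apart within the first class. By RefSeq class, 8 of its 45 members were small nucleolar RNAs (snoRNAs, 17.8%, against 0.336% of genes as bright). The others were 1 RNA that RefSeq lists as small nuclear (Rnu3a, the U3 RNA of pre-ribosomal processing), 3 long noncoding RNAs, 1 transcribed pseudogene and 32 protein-coding genes. Of the second class, 57 of 57 were protein-coding. snoRNAs guide chemical modification and cleavage of ribosomal RNA. H/ACA snoRNAs, named Snora, guide pseudouridylation and C/D-box snoRNAs, named Snord, guide 2′-O-methylation, and many are cut from introns of host transcripts. Vaultrc5, a vault RNA, shared the pattern.

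Snora16a was at 10.90 and 9.37 in PBS arrays, 9.57 and 11.76 after HDM in wild type and 8.03, 8.20 and 8.66 on the Irf3-deficient side. Its difference was 0.53 ± 0.56 in treated wild type and -1.84 ± 0.51 without Irf3. The higher PBS array exceeded the lower treated wild type array, while every Irf3-deficient array was below both PBS arrays. Snora73a gave 10.91 and 10.47 in the PBS arrays, 10.54 and 11.92 in the treated wild type arrays and 8.81, 9.35 and 9.60 in the Irf3-deficient ones, with differences of 0.54 ± 0.35 and -1.43 ± 0.32. Snord35a read 11.36 and 10.39 in the PBS arrays, 10.92 and 12.03 in treated wild type and 9.57, 9.86 and 9.47 without Irf3, with differences of 0.59 ± 0.32 and -1.25 ± 0.30. The order of the wild type arrays was the same in both. Snora33 was at 9.03 and 8.31 in PBS arrays, 8.81 and 9.68 after HDM in wild type and 7.87, 8.07 and 8.01 on the Irf3-deficient side. Rnu3a gave 9.73 and 9.0 in the PBS arrays, 9.25 and 10.75 in the treated wild type arrays and 8.91, 8.39 and 8.45 in the Irf3-deficient ones. Vaultrc5 read 10.48 and 9.64 in the PBS arrays, 10.24 and 11.17 in treated wild type and 9.37, 9.19 and 8.93 without Irf3. In these RNAs too the first PBS array read above the second and the second treated wild type array above the first. Snora44, Snora73b, Snord47 and Snora69 differed from PBS by 0.40 to 0.47 in treated wild type and by -1.54 to -0.73 without Irf3.

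For the 8 snoRNAs and Rnu3a the wild type difference turned on single arrays. In 9 of 9 the first PBS array was above the second, by a median of 0.73, and the second treated array was above the first, by a median of 1.31. The first treated array was below the first PBS array in all 9 (median difference -0.44). The median standard deviation within groups was 0.557 for these RNAs, 0.180 for the other 36 members of the class and 0.117 for all genes as bright. The gap between PBS arrays exceeded the smaller difference in 8 of the 9 and in 6 of the other 36. All 3 Irf3-deficient arrays were below both PBS arrays in 9 of 9, as in all 45 members of the class, an order that the rule favoured and that 23.4% of all bright genes had. Of the 34 bright snoRNAs and snRNAs that are not members, 28 were higher in the first PBS array and 29 in the second treated one, and in 22 all Irf3-deficient arrays were below both PBS arrays. Limma's fit called 0 of these 34 in treated against PBS-treated wild type (4 passed at an unadjusted p under 0.05, and 17.6% of all genes were called). It called 13 lower and 0 higher in Irf3-deficient than PBS arrays (4.91% and 5.89% of all genes, with 23 at an unadjusted p under 0.05). Against treated wild type it called 18 lower and 2 higher (9% and 10.7% of all genes). In the other 36 first-class members the first PBS array was also the higher in 32 and the second treated array the higher in 30. Of all 11598 bright genes, 5528 were higher in the first PBS array and 4840 in the second treated wild type array. The array order was thus shared by most of the first class, and was not a trait of small RNAs alone. The treated wild type arrays were above both PBS arrays in 31 of the 36, an order that the rule favoured and that 28.3% of all bright genes had.

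**Figure D3:**
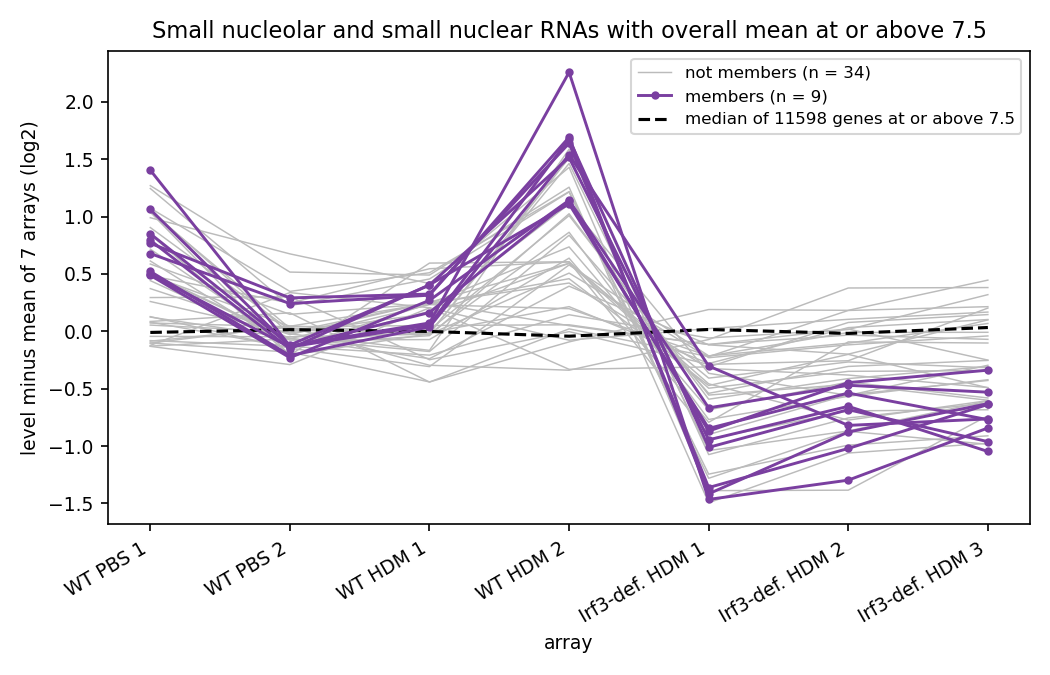
Level of each bright snoRNA or snRNA minus its mean over the 7 arrays (log2), with 1 line a gene across the arrays of the horizontal axis. The 9 members (purple) and most of the other 34 (grey) are higher in WT PBS 1 than in WT PBS 2 and higher in WT HDM 2 than in WT HDM 1, while the dashed median of all 11598 bright genes stays near 0.

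Neighbouring and near-identical copies limit the count of separate small RNAs. Snora73a and Snora73b are near-identical and adjacent on chromosome 4, and Snora16a and Snora44 are adjacent on the same chromosome, each pair with 0 genes between. The probesets of Snora73a and Snora73b may read the same RNA, so both are uncertain. Of host genes measured here, Gas5, which carries Snord47, read 11.01 and 10.51 in the PBS arrays, 10.74 and 10.79 in treated wild type and 10.39, 10.68 and 10.71 without Irf3, a difference of 0.01 ± 0.16 in treated wild type and -0.17 ± 0.15 without Irf3. Rps12, which carries Snora33, differed by -0.27 ± 0.15 and -1.36 ± 0.13. Both were named after their values were seen. Beside these, the same differences were 0.44 ± 0.27 and -1.04 ± 0.25 for Snord47 and 0.58 ± 0.25 and -0.68 ± 0.23 for Snora33.

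Innate and myeloid surface receptors, a role that also took in Epcam, Pglyrp1 and Bst1, formed 1 of the 2 largest roles of the second class. These 13 genes had median differences of -0.59 in treated wild type and 0.70 without Irf3. The groups did not overlap in 12 of them, against 53 of the 57 in the class and 3.29% of all genes, an order that the rule favoured. Pilra, an inhibitory receptor with paired family members, gave 11.60 and 12.14 in the PBS arrays, 11.01 and 10.98 in the treated wild type arrays and 12.88, 12.72 and 12.58 in the Irf3-deficient ones, 1.84-fold below PBS in treated wild type and 1.81-fold above it without Irf3. The Irf3-deficient arrays were all higher than the higher PBS array. Trem1, which amplifies inflammatory signals in myeloid cells, read 10.23 and 10.68 in the PBS arrays, 9.67 and 9.57 in treated wild type and 11.22, 11.27 and 11.30 without Irf3, with differences of -0.83 ± 0.14 and 0.81 ± 0.13. Epcam, an epithelial adhesion molecule also carried by some dendritic cells, was at 9.96 and 9.96 in PBS arrays, 9.23 and 8.80 after HDM in wild type and 10.79, 10.78 and 10.83 on the Irf3-deficient side, with differences of -0.94 ± 0.14 and 0.84 ± 0.12. Epcam is also 1 of 8 epithelial, endothelial and stromal markers. Of the other 7, 4 fell in treated wild type, and 5 were lower and 0 higher without Irf3 than in PBS. Their summed level without Epcam was 14.22 and 14.58 in PBS arrays, 14.37 and 13.49 after HDM in wild type, and 13.22 to 13.41 without Irf3. Their part in the Epcam level was not tested.

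Lectins were among these receptors. Cd209d, of the DC-SIGN family that binds mannose-type glycans, gave 11.62 and 11.66 in the PBS arrays, 10.11 and 10.23 in the treated wild type arrays and 12.43, 12.19 and 12.25 in the Irf3-deficient ones. Its 2.76-fold lower level in treated wild type was the larger of its differences (-1.47 ± 0.11 against 0.65 ± 0.10 without Irf3). Clec4n (Dectin-2), a C-type lectin known to bind mite glycans, read 10.90 and 10.98 in the PBS arrays, 10.50 and 10.46 in treated wild type and 11.44, 11.43 and 11.59 without Irf3, with differences of -0.46 ± 0.11 and 0.55 ± 0.10. Clec4d, which lies next to it on chromosome 6 with 0 genes between, was at 8.64 and 8.83 in PBS arrays, 8.19 and 8.33 after HDM in wild type and 9.75, 9.71 and 9.82 on the Irf3-deficient side, with differences of -0.47 ± 0.12 and 1.03 ± 0.11. Both sat lowest in the treated wild type arrays and highest without Irf3. Msr1, a scavenger receptor for modified lipoproteins, gave 9.25 and 9.54 in the PBS arrays, 8.42 and 8.93 in the treated wild type arrays and 9.78, 10.08 and 10.36 in the Irf3-deficient ones. Its differences were -0.72 ± 0.20 and 0.68 ± 0.18. Cxcr2, the receptor for neutrophil-attracting chemokines, read 7.94 and 7.89 in the PBS arrays, 7.29 and 7.63 in treated wild type and 8.45, 8.15 and 8.79 without Irf3, with differences of -0.45 ± 0.18 and 0.55 ± 0.16. Cxcr2 is also 1 of the 7 neutrophil markers, and the summed level of the other 6 ranged from 9.46 to 9.80 over the arrays. Near-identical family members make Cd209d, Clec4d, Clec4n and Pilra uncertain.

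Plxdc2, a transmembrane receptor-like protein, was at 12.09 and 12.10 in PBS arrays, 10.67 and 10.69 after HDM in wild type and 12.64, 12.57 and 12.59 on the Irf3-deficient side, and was 2.66-fold lower in treated wild type. Gpr84, a receptor for medium-chain fatty acids, gave 9.44 and 9.85 in the PBS arrays, 8.57 and 9.55 in the treated wild type arrays and 10.30, 10.25 and 10.50 in the Irf3-deficient ones, with differences of -0.59 ± 0.24 and 0.70 ± 0.22, and its groups overlapped. Pglyrp1 (a secreted peptidoglycan-recognition protein), Lilra6 and Bst1 (a surface enzyme) completed this role and ranged from 0.62 to 1.03 above PBS without Irf3. Beside these receptors, the summed level of macrophage and monocyte markers given above was lowest in treated wild type, as the receptors were, and lower in the Irf3-deficient arrays than in PBS arrays, where the receptors were higher. That of 6 alveolar macrophage markers was 11.98 and 12.02 in PBS arrays, 12.33 and 12.21 in treated wild type and 12.49 to 12.69 without Irf3. Of these 6, 2 rose and 1 fell in treated wild type, and 3 were higher and 0 lower without Irf3 than in PBS. In a wider list of 17 measured markers, 4 rose and 4 fell in treated wild type, with a median difference of -0.23. Of the 17, 3 were higher and 1 lower without Irf3 than in PBS. The part of either cell type in the receptor levels was not tested.

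Secreted signals made up 5 members of the second class. Ccl2, which draws monocytes through CCR2, read 12.18 and 12.51 in the PBS arrays, 11.56 and 12.14 in treated wild type and 13.08, 12.97 and 12.95 without Irf3, with differences of -0.49 ± 0.16 and 0.66 ± 0.15. Ccl7, the neighbouring chemokine with 0 genes between on chromosome 11, was at 11.20 and 11.64 in PBS arrays, 10.64 and 11.27 after HDM in wild type and 12.28, 12.36 and 12.47 on the Irf3-deficient side. Its wild type difference of -0.47 ± 0.18 had 1 treated array above 1 PBS array, and its Irf3-deficient difference was 0.95 ± 0.17. Il1a, an alarmin cytokine of the interleukin-1 family, gave 11.84 and 12.26 in the PBS arrays, 11.18 and 11.82 in the treated wild type arrays and 12.47, 12.77 and 12.99 in the Irf3-deficient ones, with differences of -0.55 ± 0.21 and 0.69 ± 0.19. Its first treated wild type array was the lowest of the 7. Igf1, insulin-like growth factor 1, read 9.15 and 9.34 in the PBS arrays, 7.58 and 8.42 in treated wild type and 9.51, 9.64 and 9.99 without Irf3, with differences of -1.24 ± 0.23 and 0.47 ± 0.21. Cxcl13, the B cell-attracting chemokine, was at 9.93 and 11.68 in PBS arrays, 9.32 and 9.86 after HDM in wild type and 11.82, 11.23 and 10.83 on the Irf3-deficient side. The second PBS array read above 2 of the Irf3-deficient arrays, so the groups overlapped. Without the first PBS array the Irf3-deficient difference was -0.38 in place of 0.49.

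In a list of 48 measured cytokines and chemokines, 2 were in the first class (Ccl4, Il15) and 5 in the second. In treated wild type 19 rose and 7 fell, against 15 higher and 3 lower in Irf3-deficient than PBS arrays (8.35% and 9.23%, and 5.89% and 4.91%, of all genes). Of 27 measured cDC2 identity genes, 3 were members, all of the second class (Cd209d, Clec4n and Epcam). Of those 27, 4 rose and 15 fell in treated wild type, and 6 were higher and 4 lower without Irf3 than in PBS. Of 27 measured monocyte and macrophage markers none was a member. Of them 5 rose and 19 fell in treated wild type, and 0 were higher and 5 lower without Irf3 than in PBS.

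Growth and ribosome-making genes formed a group of 9 in the second class, with medians of -0.56 and 0.50, and in none of the 9 did the groups overlap. That was so in 53 of the 57 in the class, and in 3.29% of all genes. Dkc1, dyskerin, the pseudouridine synthase of the H/ACA snoRNA complex, gave 9.44 and 9.46 in the PBS arrays, 8.85 and 8.67 in the treated wild type arrays and 10.40, 10.20 and 10.07 in the Irf3-deficient ones, with differences of -0.69 ± 0.13 and 0.78 ± 0.12. In group means its direction was opposite to that of the Snora members, whose wild type difference turned on single arrays, as given above. A link between Dkc1 and these RNAs was not tested. Of the other core proteins of that complex, Gar1 differed by -0.22 ± 0.12 and 0.64 ± 0.11 and Nop10 by -0.38 ± 0.15 and 0.16 ± 0.13, while Nhp2 differed by -0.06 ± 0.13 and -0.39 ± 0.11. Gar1, Nop10 and Nhp2 are not members and were named after their values were seen. Srm, spermidine synthase, read 10.86 and 11.20 in the PBS arrays, 10.36 and 10.34 in treated wild type and 11.55, 11.30 and 11.53 without Irf3, with differences of -0.68 ± 0.13 and 0.43 ± 0.12. Abce1 (ribosome recycling), Polr1b and Polr3g (subunits of RNA polymerases I and III), Rfc4 (clamp loading in DNA replication), Prmt5 (arginine methylation), Dph6 (diphthamide synthesis) and Wdr46 (nucleolar) completed the group.

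Metabolism and transport held 13 genes of the second class. Acp6, a lysophosphatidic acid phosphatase, was at 9.29 and 9.51 in PBS arrays, 8.77 and 8.49 after HDM in wild type and 10.12, 10.14 and 10.40 on the Irf3-deficient side, with differences of -0.77 ± 0.14 and 0.82 ± 0.13. Slc36a4, an amino acid transporter, gave 10.00 and 10.19 in the PBS arrays, 9.35 and 8.89 in the treated wild type arrays and 10.69, 10.73 and 10.77 in the Irf3-deficient ones, 1.97-fold lower in treated wild type. Uprt read 10.35 and 10.25 in the PBS arrays, 9.77 and 9.56 in treated wild type and 11.46, 10.84 and 10.66 without Irf3, and a second probeset gave -0.57 and 0.87. In these 3 genes all groups were apart. Dhdh was at 9.56 and 9.65 in PBS arrays, 8.93 and 8.83 after HDM in wild type and 10.58, 10.13 and 9.85 on the Irf3-deficient side, with differences of -0.72 ± 0.18 and 0.59 ± 0.17. The remaining members were Frrs1 (a ferric reductase), Hacd3 (long-chain fatty acid synthesis), Nceh1 (a cholesterol ester hydrolase), Agpat5 (phospholipid synthesis), Slc9a4 (a sodium-proton exchanger), Idh3a (isocitrate dehydrogenase), Galnt3 and Manea (protein glycosylation) and Ptgr2 (prostaglandin reductase). Their differences ran from -0.77 to -0.43 in treated wild type and from 0.42 to 0.85 without Irf3. Galnt3 gave 8.55 and 8.64 in the PBS arrays, 7.93 and 8.39 in the treated wild type arrays and 9.05, 9.12 and 9.13 in the Irf3-deficient ones, with its groups apart.

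Rnase2a, an eosinophil-type secreted ribonuclease, had the widest distance in the class. It read 8.87 and 8.41 in the PBS arrays, 7.34 and 7.93 in treated wild type and 9.86, 9.94 and 10.51 without Irf3, which is 2.01-fold below PBS and 2.76-fold above it. Of 6 measured eosinophil, mast cell and basophil markers 1 was bright. Several near-identical ribonucleases make the probeset uncertain. Pxdc1 was at 9.39 and 9.93 in PBS arrays, 8.57 and 8.77 after HDM in wild type and 9.97, 10.27 and 10.56 on the Irf3-deficient side, with differences of -0.99 ± 0.20 and 0.61 ± 0.18. Tcim gave 7.90 and 8.05 in the PBS arrays, 6.53 and 6.74 in the treated wild type arrays and 7.99, 9.0 and 8.71 in the Irf3-deficient ones, with differences of -1.34 ± 0.24 and 0.59 ± 0.22. Its first Irf3-deficient array fell within the range of the PBS arrays. Mxra7, Ncs1 (a calcium sensor), Nuak1 (an AMPK-related kinase) and Dip2c were 0.66 to 1.09 above PBS without Irf3.

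Myof, myoferlin, a membrane-repair protein, read 11.59 and 11.64 in the PBS arrays, 10.88 and 10.97 in treated wild type and 12.28, 12.26 and 12.30 without Irf3, with differences of -0.69 ± 0.09 and 0.67 ± 0.09, and the arrays of each group lay close together. Psd3 and Vat1 (vesicle traffic), Septin8 and Fmn1 (cytoskeleton) differed by -0.53 to -0.45 in treated wild type. Mitf, a transcription factor of lysosome and pigment genes, was at 9.50 and 9.71 in PBS arrays, 9.02 and 9.28 after HDM in wild type and 10.17, 9.97 and 10.09 on the Irf3-deficient side, with differences of -0.45 ± 0.13 and 0.47 ± 0.12. Its second probeset, at an overall mean of 4.31, showed -0.01 and -0.06. Klf7 (a transcription factor), Srpk2 (a splicing kinase), Nars2 (mitochondrial tRNA synthetase) and Bcap29 (an endoplasmic reticulum protein) were the other members.

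**Figure D4:**
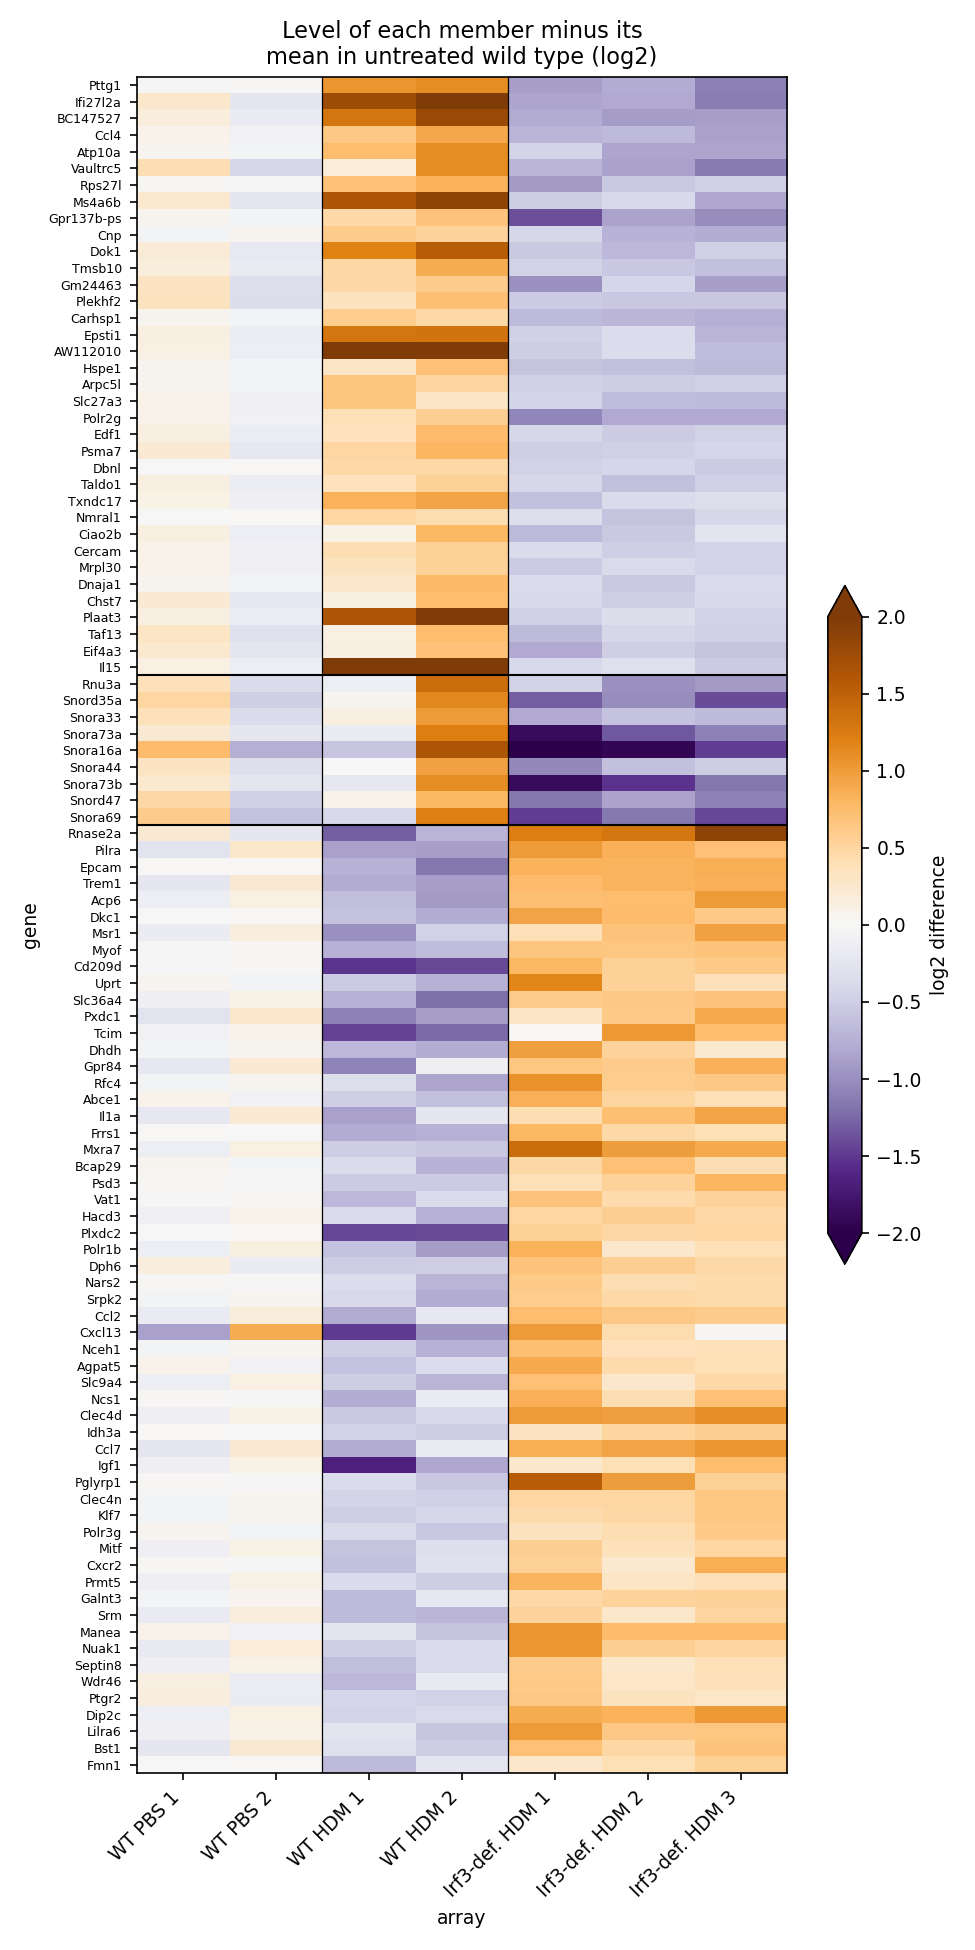
Heat map of the 102 members (rows) in 7 arrays (columns), coloured by the log2 level minus the gene's mean in PBS-treated wild type, with colours ending at -2 and 2. The first class is higher in treated wild type and lower in Irf3-deficient arrays, and the second class the reverse, with the largest differences in treated wild type for AW112010, Il15 and Plaat3.

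Gene length was not used by the rule, and further probesets were used only in choosing the brightest for each gene. Protein-coding members of the first class spanned a median of 10.1 kb of genome, against 24.8 kb in the second class and 22.8 kb in all bright coding genes. In 10 members a total of 16 further probesets carried the same gene symbol, and 15 of them had both signs as the member. Some of those of Gm24463 gave equal values in every array, to the kept probeset or to each other. Part of this count was therefore fixed in advance. Carhsp1 gave 0.81 and -0.09 and Dnaja1 0.67 and -0.08 in the other probeset, so their Irf3-deficient difference was near 0 there. The wild type difference was near 0 in 3 of the 4 other Dip2c probesets (-0.09, -0.11 and -0.15) and in that of Psd3 (-0.09). These probesets share a gene symbol in the annotation and are no further samples. Whether each reads the same RNA as the kept probeset was not tested, so these members are uncertain.

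The size minimum of 0.4 parted genes with nearly equal differences. Just inside lay Snora69 (smaller difference 0.403) and Il15 (0.407) in the first class and Fmn1 (0.406) and Bst1 (0.406) in the second. Snora69 gave 10.56 and 9.37 in the PBS arrays, 9.56 and 11.18 in the treated wild type arrays and 8.49, 8.82 and 8.54 in the Irf3-deficient ones, with differences of 0.40 ± 0.43 and -1.35 ± 0.39. Fmn1 read 8.53 and 8.56 in the PBS arrays, 7.88 and 8.31 in treated wild type and 8.81, 8.94 and 9.10 without Irf3, and Bst1 was at 8.79 and 9.24 in PBS arrays, 8.71 and 8.51 after HDM in wild type and 9.72, 9.49 and 9.70 on the Irf3-deficient side. Of these 4, Snora69 alone had groups that overlapped. Just outside lay Ms4a4c (0.398) and Pmpcb (0.392) on the side of the first class, and As3mt (whose wild type difference of -0.40 is under the minimum before rounding) and Apbb2 (0.398) on that of the second. Ms4a4c gave 12.41 and 12.00 in the PBS arrays, 13.50 and 13.63 in the treated wild type arrays and 11.76, 11.93 and 11.72 in the Irf3-deficient ones, and Pmpcb read 9.63 and 9.38 in the PBS arrays, 9.70 and 10.10 in treated wild type and 8.72, 9.08 and 8.99 without Irf3. As3mt was at 8.70 and 8.92 in PBS arrays, 8.65 and 8.18 after HDM in wild type and 9.19, 9.26 and 9.44 on the Irf3-deficient side, and Apbb2 gave 8.56 and 8.84 in the PBS arrays, 8.28 and 8.32 in the treated wild type arrays and 9.58, 9.56 and 9.43 in the Irf3-deficient ones.

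Leaving out 1 array at a time showed which members rest on it. Without the first PBS array 68 of the 102 still met the rule, and without the second 67. Without the first treated wild type array 86 did, and without the second 71, while 90, 99 and 96 did without each Irf3-deficient array. Without the second treated wild type array 25 of 45 first-class genes and 46 of 57 second-class genes were kept. In all, 31 members met the rule without each array in turn. Of these, 12 were first-class genes (Arpc5l, Atp10a, BC147527, Carhsp1, Ccl4, Cnp, Dbnl, Gpr137b-ps, Ifi27l2a, Polr2g, Pttg1 and Rps27l). The other 19 were Abce1, Acp6, Cd209d, Clec4n, Dkc1, Epcam, Frrs1, Idh3a, Klf7, Msr1, Mxra7, Myof, Pilra, Plxdc2, Psd3, Rnase2a, Slc36a4, Trem1 and Uprt. None of the 8 snoRNAs, Rnu3a and Vaultrc5 was among them.

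**Figure D5:**
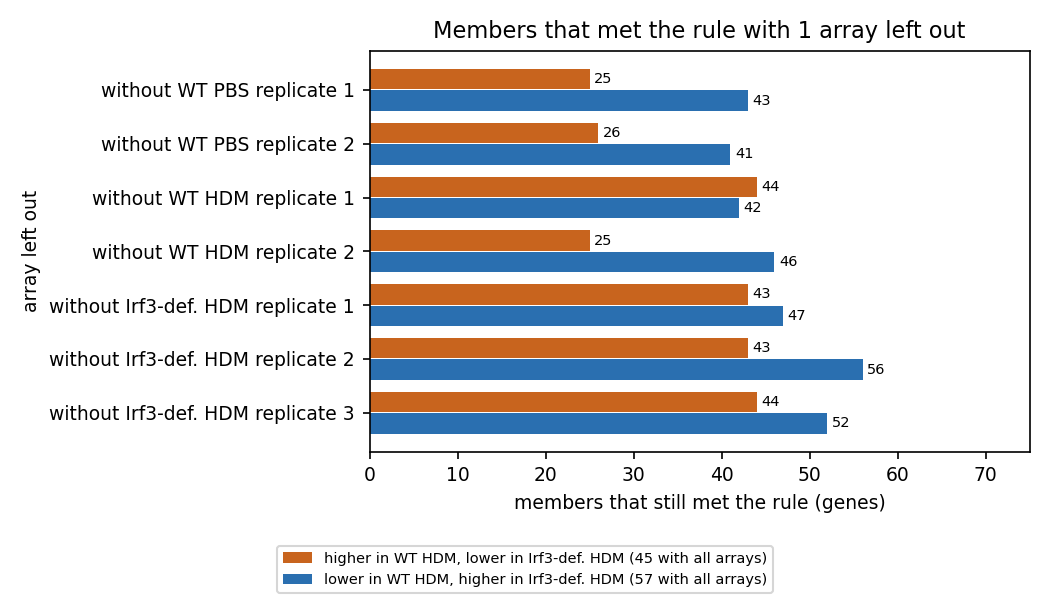
Number of members (horizontal axis, genes) that still met the rule when the array on the vertical axis was left out, by class. Of 45 first-class members 25 were kept without WT PBS replicate 1 and 44 without WT HDM replicate 1.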

How the data were processed

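The deposited table holds log2 expression values of 35556 probesets on 7 Affymetrix Mouse Gene 1.0 ST arrays. R 3.2.1, the oligo package and RMA, which corrects background, normalises arrays to 1 distribution and summarises probes, are named per the submitters' processing notes. Such a normalisation hides a change shared by most transcripts. The genome build the authors used is not given in the sources used here. Arrays carry no read depth, so their number limits the precision. Array medians were 7.60 to 7.69.

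Probesets were named from the platform annotation: 21789 had 1 symbol, 1621 several and 12146 none listed. The probeset with the highest mean stood for each of 19938 genes, of which 19856 matched RefSeq. Limma 3.58.1 under R 4.3.3 fitted 1 mean per group to all genes (lmFit, eBayes with an intensity trend, two-sided, Benjamini-Hochberg) and gave standard errors and calls. The script was tested on simulated data.

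Members and lists were chosen with earlier results of these data known. Values in every array are given for the 15 members of each class with the largest smaller difference, the 5 with the largest distance between treated genotypes, members of a gene list, and the 2 genes of each class just inside and just outside the size minimum. Other members are given by range or name. Marker levels are log2 of summed linear levels. Motifs were searched in RefSeq promoters of GRCm38.p6. Alternatives were other size and brightness minimums, median centring, the mean of probesets, each array left out, a low-value filter, no intensity trend and the replicate number as a block. No batch or scan date was given in the sources used here.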

Additional observations from a re-analysis of the deposited data

How the results depend on the processing

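The size minimum moved the set most. At 0.3 it held 256 genes (104 highest in treated wild type and 152 lowest there), and at 0.5 it held 48 (23 and 25). With each array left out in turn the set held 98 to 151 genes, with 31 to 78 in the first class (78 without WT HDM replicate 1, 31 without WT HDM replicate 2) and 51 to 73 in the second. Without both WT PBS replicate 1 and WT HDM replicate 2, an alternative chosen after seeing the data, 84 genes met the rule, 26 of them in the first class, and 56 were members. Median centring gave 101 genes and the mean of probesets 98, with 99 and 98 members among them. Genes called by limma, with each array left out, were 2333 to 3724 for treated against PBS-treated wild type (3505 with all), 749 to 2359 for Irf3-deficient against PBS-treated wild type (2153) and 2562 to 3906 between treated genotypes (3932).

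Over all alternatives, 2074 of 2244 member differences stayed within the replicate spread, 159 moved beyond it and 11 changed sign, in 8 members. Part of the 2074 was fixed in advance. Leaving out an Irf3-deficient array cannot change a wild type difference, nor a treated wild type array an Irf3-deficient difference. The mean of probesets cannot change a gene with 1 probeset. The spread came from the same arrays, so these counts do not measure robustness. The wild type difference changed sign with 1 array left out for Rnu3a (-0.12 to 1.38), Snora73a (-0.14 to 1.23), Snora16a (-0.57 to 1.62), Snora44 (-0.02 to 0.96), Snora73b (-0.20 to 1.11), Snord47 (-0.04 to 0.91) and Snora69 (-0.41 to 1.21). The Irf3-deficient difference of Cxcl13 ran from -0.38 to 1.37 and was -0.38 with both arrays left out. The cause was not tested beyond the arrays left out.

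Correlations of the deviations of same-numbered arrays were -0.2331 for PBS and treated wild type (replicates 1 and 2), 0.1779 and -0.08953 for PBS and Irf3-deficient, and -0.03092 and -0.0248 for treated wild type and Irf3-deficient. As 1 of these pairs alone was above 0.1, the numbers were not taken as pairs. With the replicate number as a block, 120 genes met the rule (96 of them members) and limma called 3118, 1426 and 3249 genes in the 3 comparisons. With the numbers of treated wild type crossed, an alternative added after seeing the data, it called 3508, 1751 and 3632.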

Other observations

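Ribosomal protein genes, which meet the snoRNAs in ribosome building, lay mostly below PBS without Irf3. Of 71 measured, limma called 31 lower and 0 higher in Irf3-deficient than PBS arrays (4.91% of all genes were lower), with a median difference of -0.32, and 1 higher and 3 lower in treated against PBS-treated wild type. Rps27l was the only member among them. Of 93 respiratory chain subunits 30 were lower and 2 higher in Irf3-deficient than PBS arrays, and of 45 histones 16 were lower and 2 higher, with no member in either family. These families were compared by count alone, with no test of the family.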
